A study of Mus musculus with 60 samples.

Results

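The genes described here are 43 genes for glutamate receptors and for the proteins of the postsynaptic density, chosen by name for their role by a rule that uses no measured value, although the list was drawn up with earlier results of these data known: 4 AMPA, 5 NMDA, 5 kainate and 6 metabotropic receptor genes, 3 AMPA receptor auxiliary subunits, 4 membrane-associated guanylate kinases, 4 guanylate kinase associated proteins, 3 Shank and 2 Homer scaffolds, 2 subunits of CaM kinase II and 5 synaptic adhesion genes. All 43 were found among the 18088 genes of the deposited table, and all 43 were among the 17807 genes tested. The data are RNA-seq profiles of dissected prefrontal cortex from 60 C57BL/6J mice, of which 30 were WT and 30 were heterozygous Chd8+/N2373K animals (called Het below). Each genotype was split into vehicle, fluoxetine (a selective serotonin reuptake inhibitor) and lithium (a mood stabilizer), and each of these into males and females, which gave 12 groups of 5 libraries. Dosing lasted 3 weeks, from postnatal day 3 to day 24, and reached every pup through its mother's milk. Brains were taken on day 25. No source used here names the litters, so libraries within a group, or from groups with the same treatment, can come from pups of a shared mother, and every p-value measures only the spread between these libraries.

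Excitatory synapses of the cortex pass glutamate from the presynaptic terminal to AMPA receptors, which carry the fast current, and to NMDA receptors, whose calcium entry starts plasticity, while kainate and metabotropic receptors modulate both sides of the synapse. Under the postsynaptic membrane a layered scaffold holds these receptors: the guanylate kinases (the Dlg genes) bind receptor tails, the Dlgap proteins bind the guanylate kinases, and Shank and Homer proteins link the Dlgap layer to the actin skeleton and to metabotropic receptors. CaM kinase II changes receptor number and function after calcium entry, and neuroligins and Lrfn proteins are synaptic adhesion proteins. Mutations in several of these genes, Shank3 and the neuroligins among them, are known causes of autism, and Chd8, a chromatin remodeler, is an autism gene too.

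Values are normalized counts, that is, reads divided by 1 size factor per library as deposited. Library totals were inferred over the genes of the deposited table, by taking the smallest value above 0 in each library as 1 read. They ran from 24.05 to 31.65 M reads (megareads, median 28.3 M). Fold changes are differences of log2(normalized count + 1), given with their standard error (SE), and a gene is called where its limma p-value, Benjamini-Hochberg adjusted over all 17807 genes, was below 0.05. Chd8, measured as a check of the genotype labels, had 3094 ± 91.7 normalized counts (SD, n = 30) in WT and 2671 ± 134 (SD, n = 30) in Het libraries, with ranges of 2951 to 3285 and 2421 to 3072 that overlapped. All 10 excitatory cortical neuron markers examined were present in all 60 libraries (Slc17a7, the vesicular glutamate transporter of cortical neurons, from 34169 to 54206). Markers of tissue next to the dissected region varied widely between libraries: the 20 olfactory bulb markers summed to 13605 to 67949 normalized counts among Het vehicle males and to 12942 to 37435 among Het fluoxetine males, and none of the 20 was at 0 in every library. In bulk tissue, fewer cells of a type and less RNA per cell cannot be told apart.

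Per kilobase of exon, the member RNAs of the 10 WT vehicle libraries covered a wide span. The length used was the union of all annotated exons of a gene, which for some genes is far longer than the longest transcript. For Grin1 it was 9700 against 4276 bases and for Dlg4 13251 against 6326, but for Gria1 6043 against 5546. The order of genes given here therefore depends on this choice of length. Camk2a, the alpha subunit of CaM kinase II and a major protein of forebrain synapses, stood first with 12207 ± 1942 normalized counts per kilobase (SD, n = 10). Camk2b (2359 ± 94.5), Dlgap3 (2121 ± 184) and Dlg4 (2033 ± 142), the principal guanylate kinase of excitatory synapses, followed it in that order. The SD range of Dlgap3 overlapped those of Camk2b and Dlg4, and that of Dlg4 overlapped that of Gria1, the next in order. Among receptor subunits Gria1 (1803 ± 151) and Gria2 (1542 ± 54.7) of the AMPA type and Grin1 (1476 ± 115), the obligatory NMDA receptor subunit, led the order. Lowest were Grin2d (61.9 ± 5.51), an NMDA receptor subunit of early development and of interneurons, Grik1 (58.6 ± 6.74), Homer3 (55.7 ± 8.18) and Grm8 (53.9 ± 8.72), whose SD ranges overlapped one another. Lrfn2, a leucine-rich adhesion protein that binds guanylate kinase scaffolds and NMDA receptors, was rank 35 of 43 with 174 ± 12.9 normalized counts per kilobase.

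**Figure D1:**
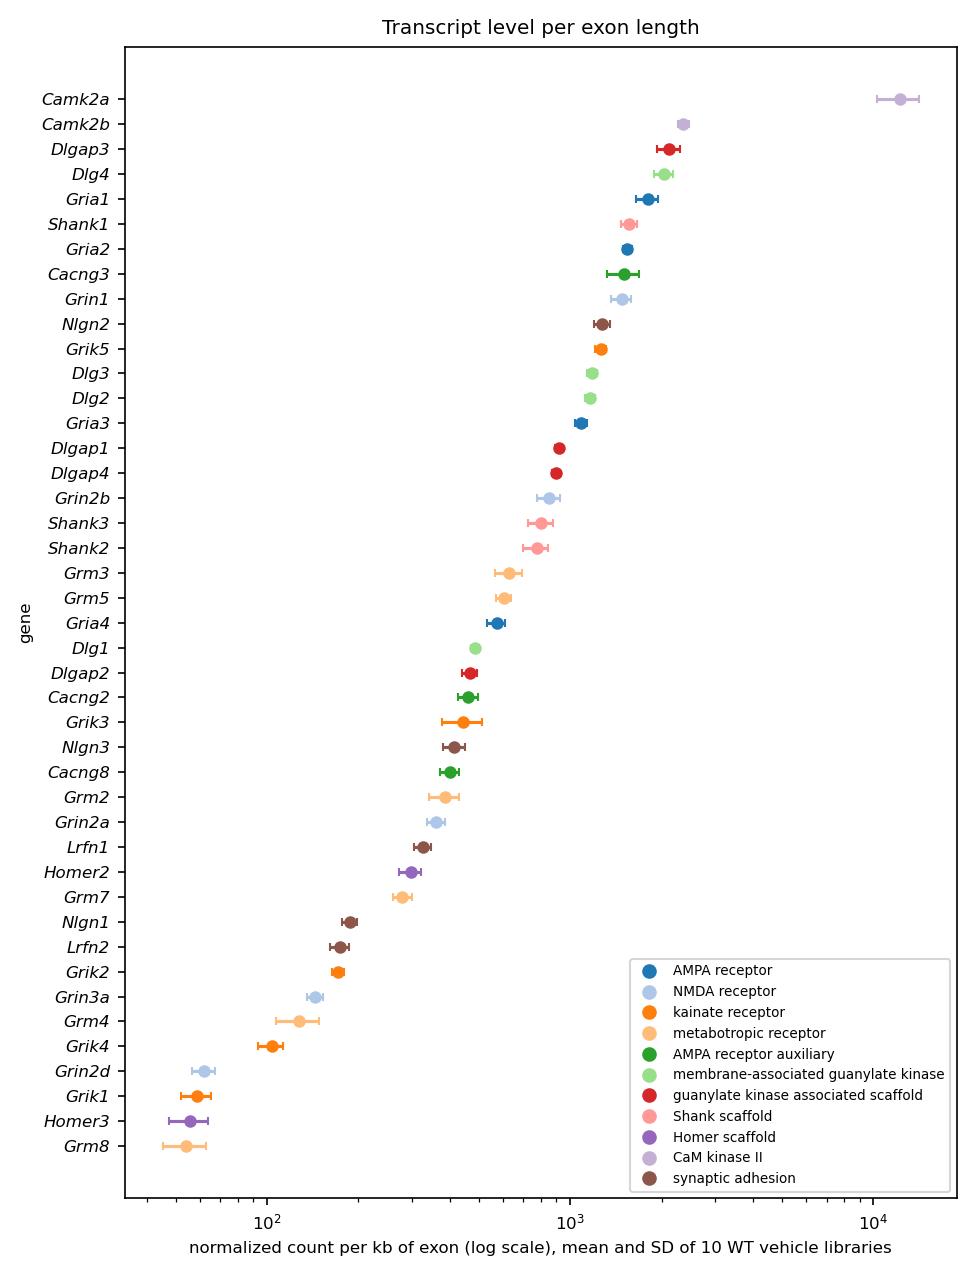
Level of each of the 43 genes in WT vehicle libraries, in normalized counts per kilobase of the union of annotated exons on a log axis. Genes are ordered by their mean, and the error bars show the SD over 10 libraries. Camk2a stood alone at 12207, and Grin2d, Grik1, Homer3 and Grm8 lay between 53.9 and 61.9.

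Genotype alone was compared first, in vehicle libraries. None of the 43 genes was called between Het and WT males (0.0168% of all genes tested were called), females (0.0225%) or the average of both sexes (0.0562%) in the limma fit. At an unadjusted p under 0.05 the counts were 4 in males, 1 in females and 3 in the average. Those 3 were Gria3 (log2 fold change -0.11), Dlgap1 (-0.07) and Grin2d (0.15), and the smallest adjusted p among the members was 0.549. Estimates of the sex average ran from -0.14 for Grik3, a kainate receptor subunit, to 0.17 for Grm2, a largely presynaptic metabotropic receptor. Between WT males and WT females given vehicle, 0 members were called as well (0.0674% of all genes), and 0 had an unadjusted p under 0.05.

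Fluoxetine in Het mice moved members in both directions. In the average of both sexes, 10 of the 43 were higher and 10 lower than in Het vehicle libraries (46.5% called). Of all genes tested 32.9% were called, 16.9% higher and 16% lower. The members had a median change of 0.016 and all genes one of 0.005. The raised genes included Lrfn2, the receptor subunits Gria1, Gria3, Grin1 and Grin2a, the guanylate kinases Dlg1 and Dlg3, Dlgap1, Camk2b and Nlgn1. The lowered genes included Shank1, Shank3, Dlgap3, Dlg4, both Homer genes, Gria4, Grin2d, Nlgn2 and Nlgn3. The split between directions depended on the scaling: it was 7 higher and 12 lower after quantile normalization, and 8 higher and 13 lower with all libraries set to 1 total.

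**Figure D2:**
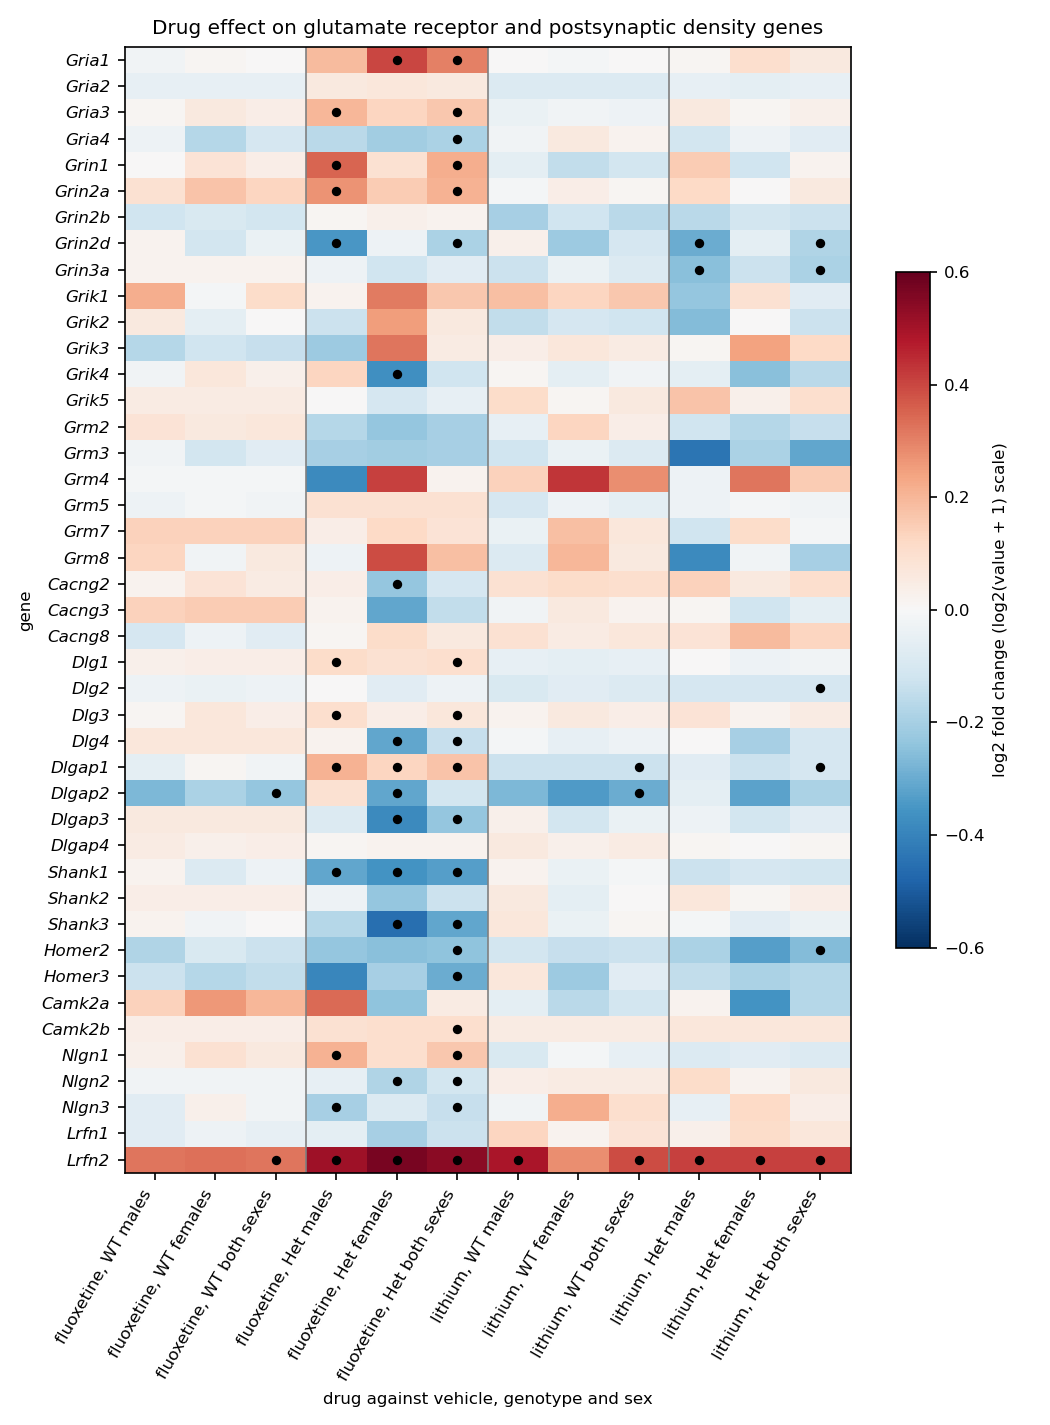
Heat map of the log2 fold change of each of the 43 genes, in rows ordered by role, for fluoxetine and lithium against vehicle in each genotype and sex and in the average of both sexes. Red is higher, blue is lower, and a dot marks an adjusted p below 0.05. The columns for fluoxetine in Het mice hold most of the dots, 20 of them in the average of both sexes, and Lrfn2 is red in every column.

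Among AMPA receptor genes, Gria1 and Gria3 rose, Gria4 fell, and Gria2, the subunit that blocks calcium entry, was not called (0.06 ± 0.04 SE, adjusted p = 0.19). Gria1 encodes an activity-regulated subunit that is inserted during plasticity. Its normalized counts in replicates 1 to 5 were 11241, 10704, 9844, 11099 and 9824 in Het vehicle males and 8607, 11539, 14456, 11760 and 14673 in Het fluoxetine males. In females they were 9337, 12036, 7943, 8746 and 10917 with vehicle and 11778, 12965, 13504, 11528 and 14448 with fluoxetine. Fluoxetine libraries lay above every vehicle library of their sex except male replicate 1, the lowest male of all, and female replicates 1 and 4, which were below vehicle replicate 2. The sex-average change was 0.30 ± 0.07 (SE), adjusted p = 0.00042, with 9 of 10 fluoxetine libraries above the vehicle mean of their sex. Gria3 rose by 0.16 ± 0.04 (adjusted p = 0.00224), with 9 of 10 libraries above that mean. Its male counts, 8907, 9955, 9816, 9911 and 10620 with vehicle and 10996, 11950, 10879, 11353 and 11299 with fluoxetine, did not overlap, and its female counts did. Gria4, more typical of interneurons, changed by -0.19 ± 0.06 (adjusted p = 0.0127), and in females its fluoxetine replicate 1, at 3815, stood apart from the other 4 at 2922 to 3056. The 3 auxiliary subunits Cacng2, Cacng3 and Cacng8, which carry AMPA receptors to the synapse, had estimates from -0.15 to 0.06 and none was called.

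NMDA receptor genes gave 2 higher, 1 lower and 2 not called. Grin1 counts were 12531, 13119, 13518, 11928 and 14889 in Het vehicle males and 15338, 13713, 20730, 19204 and 16036 in Het fluoxetine males. In females they were 15031, 15369, 14367, 14853 and 15315 with vehicle and 14667, 15647, 18158, 15791 and 15812 with fluoxetine. All but 1 fluoxetine library in each sex exceeded every vehicle library, and male replicates 3 and 4 were the highest. The sex-average change of Grin1 was 0.22 ± 0.07 (SE), adjusted p = 0.0116. That call was lost in 2 of 30 alternatives: after quantile normalization and without the 16 libraries of the series highest in olfactory bulb marker score.

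Grin2a, the subunit that gains share as cortical synapses mature, had 5610, 6716, 5439, 5998 and 6193 normalized counts in Het vehicle males against 7008, 7537, 7270, 7024 and 7312 in Het fluoxetine males. The female values were 6674, 6267, 6391, 5352 and 7126 with vehicle and 6601, 6025, 8285, 7302 and 7155 with fluoxetine. The male groups did not overlap, while in females 2 fluoxetine libraries lay within the vehicle range. Its sex-average change was 0.21 ± 0.05 (SE), adjusted p = 0.00189. Grin2d moved the other way, by -0.19 ± 0.06 (adjusted p = 0.0117), with most of the change in males, where vehicle libraries held 634, 512, 431, 501 and 380 and fluoxetine libraries 353, 357, 408, 380 and 403. Male vehicle replicate 1, with the highest Grin2d count, was also the library with the highest olfactory bulb marker score of its group. Without the 16 libraries of the series that scored highest for those markers, the change was -0.12 and its adjusted p 0.271. Grin2b, the juvenile partner of Grin1, was at 0.02 ± 0.09 and Grin3a, a subunit that lowers calcium entry, at -0.07 ± 0.05, neither of them called.

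Kainate and metabotropic receptor genes gave no call in the sex average. The 5 kainate genes ran from -0.12 (Grik4) to 0.16 (Grik1), and the 6 metabotropic genes from -0.20 (Grm2 and Grm3) to 0.18 (Grm8). Over the 12 group means of the study (n = 5 each), Grik5, the most abundant kainate gene, ran from 6379 ± 438 in Het fluoxetine males to 7152 ± 295 in Het lithium males, and Grik1 from 369 ± 35.9 in WT vehicle males to 480 ± 71.5 in Het fluoxetine females (SD). Grm2 and Grm3, which dampen glutamate release, ran from 1838 ± 269 to 2118 ± 302 and from 1470 ± 327 to 1957 ± 322. Grm5, the receptor that couples to Homer, came closest with 0.09 ± 0.04 (SE) and an adjusted p of 0.101.

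Scaffold genes moved differently from paralog to paralog. Of the guanylate kinases, Dlg1, which traffics AMPA receptors, and Dlg3, which is prominent in young neurons, rose by 0.10 ± 0.02 (SE; adjusted p = 0.000944) and 0.07 ± 0.03 (adjusted p = 0.0303). The Dlg3 call was lost in 10 of 30 alternative settings, among them quantile normalization (0.02, adjusted p = 0.569) and 1 total for all libraries (0.04, adjusted p = 0.269). Dlg1 counts were 4901, 5212, 5071, 4986 and 5100 in Het vehicle males and 5569, 5618, 5219, 5400 and 5536 in Het fluoxetine males. In females the vehicle libraries held 5019, 5094, 5256, 5105 and 5246, and the fluoxetine libraries 5405, 5558, 5336, 5552 and 5537. In neither sex did the Dlg1 groups overlap, although the change was small. Dlg4 changed by -0.14 ± 0.05 (adjusted p = 0.0341) and its paralog Dlg2 by -0.03 ± 0.03, which was not called. The Dlg4 call was lost in 8 of 30 alternatives, among them those without female vehicle replicate 3 or 4.

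Dlg4 was called in Het females, where vehicle libraries held 29452, 25467, 34635, 33255 and 26032 normalized counts and fluoxetine libraries 24538, 23746, 21931, 27199 and 21979. The Het male means were 25933 with vehicle and 26546 with fluoxetine. A difference between the sexes was not shown: the limma test of males minus females called 0 members in Het mice (smallest adjusted p = 0.215). The female fluoxetine values were below the vehicle values apart from replicate 4, and vehicle replicates 3 and 4 stood far above the other 3.

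The Dlgap genes, whose proteins bridge guanylate kinases and Shanks, moved apart from one another. Dlgap1 counts were 15438, 15468, 14899, 15839 and 15939 in Het vehicle males and 16173, 17642, 18369, 18433 and 19052 in Het fluoxetine males. In females they were 16013, 15926, 15791, 14605 and 16172 with vehicle and 16571, 16423, 18945, 18005 and 16246 with fluoxetine. Every fluoxetine library exceeded every vehicle library of its sex, by a narrow margin in females. The sex-average change of Dlgap1 was 0.17 ± 0.03 (SE), adjusted p = 7.18e-05.

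Dlgap3, a paralog strongly expressed in striatum as well as cortex, changed by -0.23 ± 0.07 (adjusted p = 0.00724). Its female counts were 10039, 8496, 13567, 12925 and 9151 with vehicle and 8673, 7656, 7713, 9343 and 7765 with fluoxetine. The male counts, 7845, 9952, 9876, 9472 and 10897 with vehicle and 10872, 8094, 8889, 10750 and 7205 with fluoxetine, overlapped through most of their range. Female vehicle replicates 3 and 4 were again the highest. Dlgap2 (-0.11 ± 0.06) and Dlgap4 (0.02 ± 0.03) were not called in the sex average.

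Shank genes fell or were not called. Shank1 counts were 16221, 17820, 14573, 17392 and 17229 in Het vehicle males and 15371, 14687, 11265, 14546 and 11682 in Het fluoxetine males. In females they were 15958, 14813, 19413, 17420 and 15779 with vehicle and 15022, 11117, 13447, 14041 and 11657 with fluoxetine. The ranges touched only through male vehicle replicate 3 and female fluoxetine replicate 1, so that 10 of 10 fluoxetine libraries were below the vehicle mean of their sex. The sex-average change of Shank1 was -0.33 ± 0.06 (SE), adjusted p = 4.02e-05.

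Shank3, the paralog whose loss causes an autism syndrome, had 6991, 7814, 6536, 7363 and 8559 normalized counts in Het vehicle males and 8719, 6473, 5366, 7235 and 5705 in Het fluoxetine males. In females it had 7636, 6774, 10618, 9791 and 6967 with vehicle and 6914, 4745, 5657, 6926 and 6157 with fluoxetine. In each sex 3 of the 5 fluoxetine libraries were below every vehicle library and the other two overlapped or exceeded the vehicle range, male fluoxetine replicate 1 being the highest male. Its sex-average change was -0.31 ± 0.08 (SE), adjusted p = 0.00133. Shank2 changed by -0.13 ± 0.06, adjusted p = 0.13.

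Homer2 and Homer3, adaptors between Shanks and metabotropic receptors, changed by -0.24 ± 0.07 (SE; adjusted p = 0.0107) and -0.30 ± 0.11 (adjusted p = 0.0347). The Homer3 call was lost in 14 of 30 alternatives, among them quantile normalization (adjusted p = 0.0543), the GC correction (adjusted p = 0.0619) and the omission of single libraries. In Het males Homer2 held 4374, 4068, 2811, 3880 and 3649 normalized counts with vehicle and 3727, 3796, 2120, 2950 and 3665 with fluoxetine. In Het females it held 3752, 3424, 4687, 4113 and 3795 with vehicle and 4021, 3067, 3278, 3524 and 2744 with fluoxetine. The Homer2 groups overlapped in both sexes. Homer3 was scarce, with 139 to 277 normalized counts over these 20 libraries, and 25.4% of its exon length overlaps Ddx49 on the opposite strand. Its groups overlapped in both sexes. Of CaM kinase II, Camk2b rose by 0.10 ± 0.03 (adjusted p = 0.0243) while the far more abundant Camk2a was at 0.05 ± 0.11 and was not called. The Camk2b call was lost in 8 of 30 alternatives, with 0.03 (adjusted p = 0.598) after quantile normalization and 0.06 (adjusted p = 0.207) with 1 total.

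**Figure D3:**
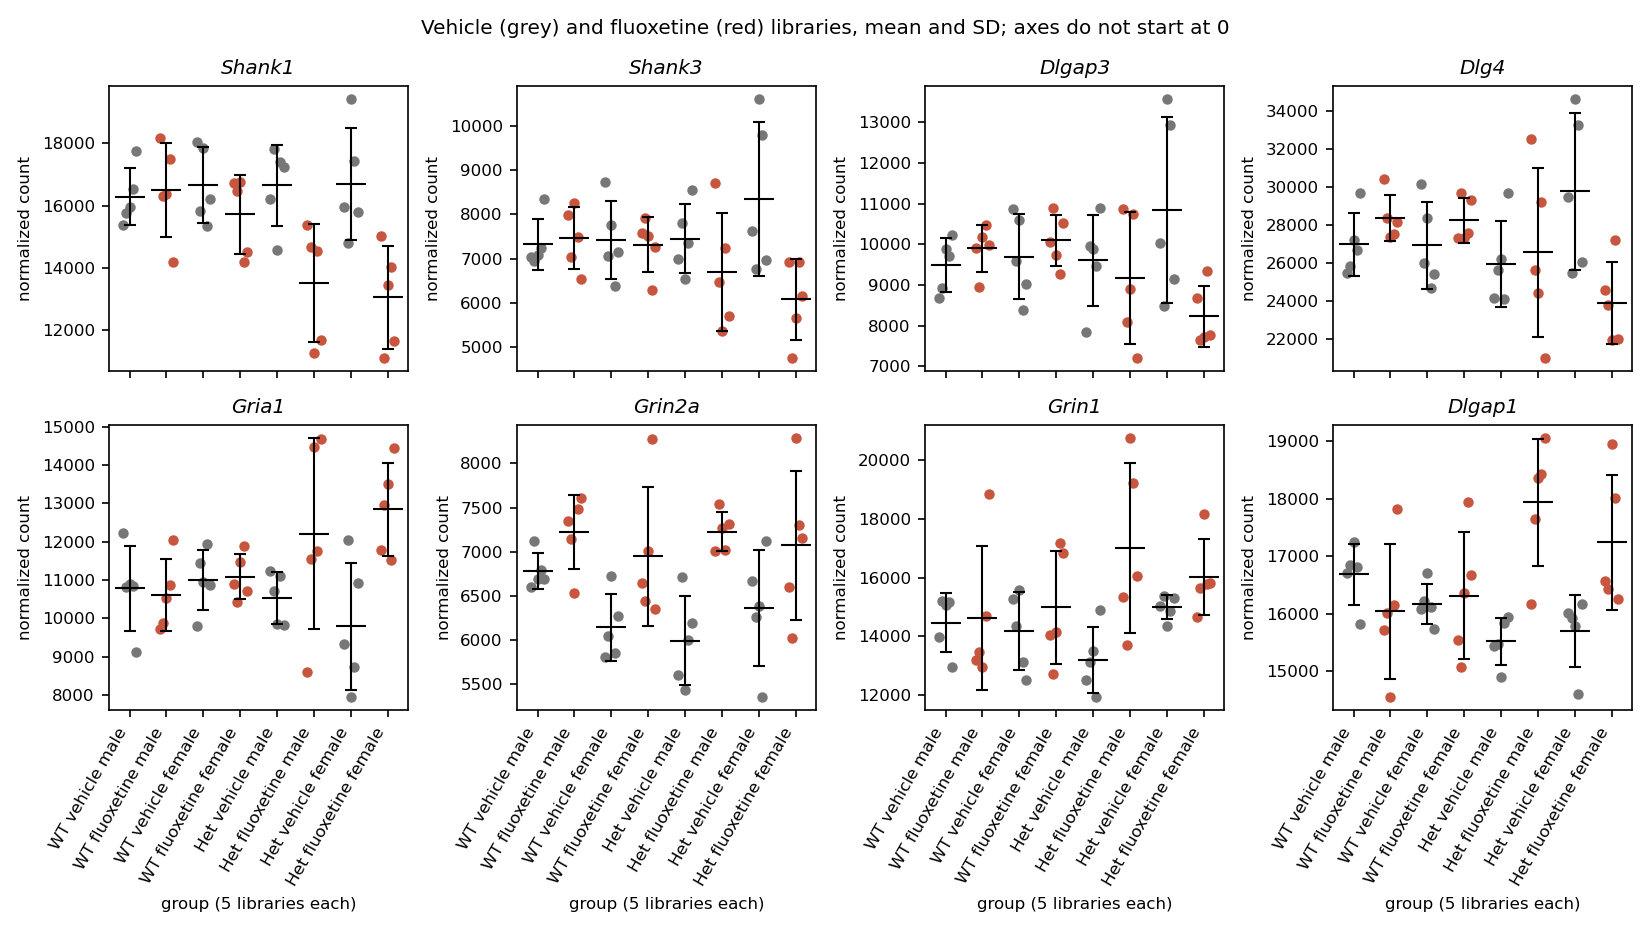
Normalized counts per library for 8 member genes in vehicle (grey) and fluoxetine (red) libraries of each genotype and sex, with a horizontal line at each group mean and axes that do not start at 0. In Het mice of both sexes all Dlgap1 fluoxetine values exceed the vehicle values, Shank1 fluoxetine values lie low, and the high Het vehicle females of Shank3, Dlgap3 and Dlg4 are replicates 3 and 4.

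The sequence just before the start of 4 scaffold genes is shown. They were picked by adjusted p in the sex average of Het fluoxetine libraries, among members with a RefSeq promoter entry. Dlgap1 and Dlg1 had the smallest values of those that rose, and Shank3 and Dlgap3 of those that fell. Called members without an entry, such as Lrfn2, Gria1 and Shank1, could not be shown. The windows are the 250 bases upstream of the RefSeq start on the plus strand of GRCm38.p6, at chr17:69968823-69969072 for Dlgap1, chr16:31663193-31663442 for Dlg1, chr15:89499358-89499607 for Shank3 and chr4:127172630-127172879 for Dlgap3. Capitals mark GC boxes (GGGCGG or its complement CCGCCC) and the EGR motif (GCGTGGGCG or its complement CGCCCACGC), the latter being the binding sequence of activity-induced EGR factors.
Dlgap1: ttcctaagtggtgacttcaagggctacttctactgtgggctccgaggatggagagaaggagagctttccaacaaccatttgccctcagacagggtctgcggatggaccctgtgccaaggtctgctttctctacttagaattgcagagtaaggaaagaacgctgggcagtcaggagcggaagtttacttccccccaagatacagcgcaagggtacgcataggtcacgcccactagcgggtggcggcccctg
Dlg1: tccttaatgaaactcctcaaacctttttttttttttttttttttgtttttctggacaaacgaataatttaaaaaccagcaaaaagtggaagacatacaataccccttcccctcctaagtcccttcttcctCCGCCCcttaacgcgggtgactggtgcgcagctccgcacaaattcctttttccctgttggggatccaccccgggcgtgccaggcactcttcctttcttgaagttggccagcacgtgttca
Shank3: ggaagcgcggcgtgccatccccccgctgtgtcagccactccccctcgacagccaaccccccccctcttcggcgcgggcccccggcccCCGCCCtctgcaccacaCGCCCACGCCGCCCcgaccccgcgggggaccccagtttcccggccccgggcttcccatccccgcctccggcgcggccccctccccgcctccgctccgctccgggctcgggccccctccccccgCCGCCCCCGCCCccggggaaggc
Dlgap3: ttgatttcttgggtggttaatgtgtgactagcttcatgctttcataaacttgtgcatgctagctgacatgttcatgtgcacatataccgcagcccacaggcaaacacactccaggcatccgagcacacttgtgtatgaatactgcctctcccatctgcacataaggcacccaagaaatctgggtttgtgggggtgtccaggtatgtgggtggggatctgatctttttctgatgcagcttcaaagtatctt
G and C made up 55.2% of the Dlgap1 window, 46.0% of Dlg1, 82.4% of Shank3 and 46.8% of Dlgap3, whose RefSeq start lies inside the gene's GENCODE span (chr4:127169204-127237022). The Shank3 window held 4 GC boxes and 1 EGR motif, which overlapped a GC box, Dlg1 held 1 GC box, and the other two held neither. A RefSeq promoter entry was matched for 28 of the 43 members. The 250 bases before the start were searched on both strands in all 32851 promoter windows. A member counted where any of its windows held the motif, while the share over all windows counted single windows. The member and window shares are thus in unlike units, and a gene with several windows has more chances of a match. A GC box was in 57.1% of the 28 members and in 32.7% of all windows. The EGR motif was in 3.57% (Shank3 alone) and 0.536%, and the cAMP response element TGACGTCA in 0 of 28 and 1.55%. Such a match describes letters only. Along the whole transcript, the G and C content had a median of 49.4% over the 10 raised genes, 60.4% over the 10 lowered and 52.2% over the 23 not called, and across the 43 genes its Pearson r with the fold change was -0.34, a description over genes that share the same libraries.

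Among adhesion genes, 2 rose, 2 fell and 1 was not called, and Lrfn2 had the largest change of the 43. Nlgn1, the neuroligin of excitatory synapses, rose by 0.16 ± 0.04 (SE; adjusted p = 0.00207). Nlgn2, the neuroligin of inhibitory synapses, changed by -0.11 ± 0.03 (adjusted p = 0.00739) and Nlgn3, found at both kinds, by -0.14 ± 0.05 (adjusted p = 0.0267). Nlgn3 shares 41.2% of its exon length with Gm21986 on the same strand, so its counts are uncertain, and without the 16 libraries highest in olfactory bulb score its change was -0.04 (adjusted p = 0.707). Lrfn1 was at -0.13 ± 0.05 with an adjusted p of 0.0671.

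Lrfn2 (ENSMUSG00000040490, chr17:48932379-49097588 on the plus strand of GRCm38) had 476, 559, 561, 566 and 561 normalized counts in Het vehicle males and 697, 679, 852, 926 and 752 in Het fluoxetine males. In females it had 481, 596, 532, 521 and 573 with vehicle and 737, 859, 814, 874 and 726 with fluoxetine. The groups were fully separate in both sexes. The sex-average change was 0.54 ± 0.07 (SE), a 45.4% increase, with an adjusted p of 9.71e-08 and 10 of 10 libraries above the vehicle mean of their sex.

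Beside these gene changes, other markers moved in the same Het comparison of the sex average: 1 of 10 excitatory neuron markers was higher and 3 lower, 3 of 14 striatal and 3 of 16 oligodendrocyte and myelin markers were higher, 1 of 12 astrocyte markers was higher and 2 lower, 1 of 12 interneuron markers was lower, and 0 of 20 olfactory bulb and 0 of 10 choroid plexus markers were called. The sex average hid opposite shifts of the olfactory bulb markers: their median change was -0.78 in Het males and 0.44 in Het females, beside -0.09 in the average. With olfactory bulb, striatal and myelin scores as covariates 19 of the 20 calls were kept. Beyond that fit, the part of these markers in the result was not tested. Without the 16 libraries highest in olfactory bulb score, 10 members were called instead of 20 (Het vehicle males then numbered 2 and Het fluoxetine females 2), and with only the groups compared in the fit 12 were called. Dlgap1, Gria1, Gria4, Grin2a, Lrfn2, Shank1 and Shank3 passed in all 30 alternative settings, and no named change turned its direction in any of them.

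By sex, Het males given fluoxetine had 8 members higher and 3 lower (25.6%, against 22.7% of all genes, 12% higher and 10.7% lower), with medians of 0.006 for members and -0.001 for all genes. The higher genes were Lrfn2 (0.51), Grin1 (0.35), Grin2a (0.27), Nlgn1 (0.21), Dlgap1 (0.21), Gria3 (0.20), Dlg1 (0.11) and Dlg3 (0.10), and the lower were Grin2d (-0.35), Shank1 (-0.31) and Nlgn3 (-0.20). The Dlg3 call was lost in 13 of 20 alternatives and the Nlgn3 call in 9, and 0 of the 11 calls were kept in all 20. Nlgn1 was fully separate, at 2543, 2435, 2308, 2490 and 2631 with vehicle and 2898, 2848, 2865, 2779 and 2988 with fluoxetine. Homer3 had the lowest estimate of all, -0.39, and was not called. After quantile normalization, or with 1 total for all libraries, the split was 5 higher and 5 lower. The 20 olfactory bulb markers had a median change of -0.78 in this comparison, with 0 of them called. With olfactory bulb, striatal and myelin scores as covariates 9 of the 11 calls were kept. Beyond that fit, the part of dissection in these changes was not tested. No member was called without the 16 libraries, where 2 Het vehicle males and 3 Het fluoxetine males were left, and 3 were called with only the groups compared in the fit.

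Het females given fluoxetine had 3 members higher and 8 lower (25.6%, against 15.1% of all genes, 7.08% higher and 8.04% lower), with medians of -0.033 for members and 0.009 for all genes. Higher were Lrfn2 (0.57), Gria1 (0.40) and Dlgap1 (0.13). Lower were Shank3 (-0.45), Dlgap3 (-0.38), Grik4 (-0.37), a kainate receptor subunit of low abundance, Shank1 (-0.36), Dlg4 (-0.31), Dlgap2 (-0.31), Cacng2 (-0.23) and Nlgn2 (-0.18). Nlgn2 was fully separate, at 7491, 7601, 7849, 7873 and 7674 with vehicle and 6880, 6652, 7049, 6897 and 6424 with fluoxetine. In this comparison 9 of 16 oligodendrocyte and myelin markers were higher, with a median of 0.92, and the summed count of those markers ran from 37718 to 173857 in vehicle and from 123410 to 221324 in fluoxetine females. Vehicle replicates 3 and 4, with the highest Shank3, Dlgap3 and Dlg4, had the lowest myelin marker scores of the vehicle females, -1.44 and -1.16. With olfactory bulb, striatal and myelin scores as covariates 7 of the 11 calls were kept, and Cacng2, Dlgap1, Dlgap2 and Grik4 lost theirs. Beyond that fit, the part of myelin or of dissection in these changes was not tested. Of the 11 calls, 2 (Lrfn2 and Nlgn2) passed in all 20 alternatives. The split was 2 higher and 10 lower after quantile normalization and 2 and 9 with 1 total. Without Het vehicle female replicate 3, 6 members were called, without replicate 2 of the same group 18, and with only the groups compared 2.

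Whether males and females differed in their response was tested by the difference of the fluoxetine effects. In Het mice 0 members passed (0.0112% of all genes), with 11 at an unadjusted p under 0.05 and a smallest adjusted p of 0.215. The estimates of males minus females included Camk2a (0.58 ± 0.22 SE), Grik4 (0.51 ± 0.17), Dlgap2 (0.40 ± 0.13), Dlg4 (0.33 ± 0.11), Grik2 (-0.38 ± 0.14) and Grm4 (-0.80 ± 0.28). Camk2a held 69603, 80715, 72449, 76234 and 106178 normalized counts in Het vehicle males and 134880, 82411, 104168, 124793 and 74353 in Het fluoxetine males. In females it held 113043, 75237, 144989, 126030 and 77921 with vehicle and 82319, 71428, 92775, 126250 and 77295 with fluoxetine. The ranges overlapped in both sexes, and the libraries of each group were spread widely. In WT mice 0 members passed, with 0 at an unadjusted p under 0.05.

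In WT mice fluoxetine moved few members. None of the 43 was called in WT males (1.34% of all genes, 2 members at an unadjusted p under 0.05) or WT females (2.5%, 3 members), and 2 were called in the average of both sexes (1 higher and 1 lower, 4.65%, against 8.2% of all genes, 3.14% higher and 5.06% lower), where the member median was 0.02 and that of all genes 0.005. Lrfn2 counts in WT males were 592, 517, 537, 565 and 476 with vehicle and 675, 613, 553, 625 and 934 with fluoxetine. In WT females they were 568, 614, 589, 529 and 574 with vehicle and 847, 591, 572, 829 and 812 with fluoxetine. Fluoxetine libraries were mostly above, with male replicate 3 and female replicates 2 and 3 inside the vehicle ranges. With WT fluoxetine male replicate 3 left out 1 member was called in males, and with WT fluoxetine female replicate 2 or 3 left out 1 in females. The sex-average change of Lrfn2 was 0.32 ± 0.07 (SE), adjusted p = 0.0017.

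Dlgap2, the other WT call, changed by -0.23 ± 0.06 (adjusted p = 0.0207). It had 2859, 3062, 2996, 2944 and 2832 normalized counts in WT vehicle males and 2340, 2732, 2350, 2311 and 2511 in WT fluoxetine males. In WT females it had 2763, 2628, 3085, 2723 and 2723 with vehicle and 2330, 2384, 2468, 2794 and 2274 with fluoxetine. The male groups were separate and the female groups overlapped through fluoxetine replicate 4. Without the 16 libraries 1 of these 2 calls was left.

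The difference between the genotypes in their response to fluoxetine was tested directly, from 4 groups per sex that share no library between the genotypes. In the sex average 1 member passed (1.7% of all genes, 0.724% higher and 0.977% lower), with 10 at an unadjusted p under 0.05. It was Dlgap1, with a difference (Het minus WT) of 0.19 ± 0.05 (SE), a 95% interval of 0.10 to 0.29 and an adjusted p of 0.0268. WT Dlgap1 counts were 16699, 16844, 17245, 16806 and 15811 in vehicle males and 15705, 16012, 14538, 16146 and 17815 in fluoxetine males. WT females held 16078, 16213, 16705, 16118 and 15726 with vehicle and 15537, 15067, 16350, 17935 and 16678 with fluoxetine. The WT groups overlapped in both sexes, unlike the Het groups, and the WT change was -0.02 ± 0.03. Dlgap1 passed in males too (0.27 ± 0.07, adjusted p = 0.0378, where 0.927% of all genes passed, 0.337% higher and 0.59% lower), and 0 members passed in females (0% of all genes, 13 members at an unadjusted p under 0.05). The sex-average call was lost with only the groups compared (adjusted p = 0.0622), without the 16 libraries (0.135) and with marker scores as covariates (0.0519), and it was lost without Het fluoxetine female replicate 3, Het vehicle female replicate 3 or 4, or WT fluoxetine female replicate 2. The male call was lost in 16 of 30 alternatives, among them those without Het fluoxetine male replicate 3 or 5, Het vehicle male replicate 1, 2 or 4, WT fluoxetine male replicate 1, 3 or 4, or WT vehicle male replicate 1, 2, 3 or 4.

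Other members had differences of like size that did not pass: Shank1 at -0.30 ± 0.09 (95% interval -0.47 to -0.12, adjusted p = 0.0538), Gria1 at 0.30 ± 0.09 (0.11 to 0.49, adjusted p = 0.0628), Dlgap3 at -0.29 ± 0.10 (adjusted p = 0.0773), Shank3 at -0.31 ± 0.11 (adjusted p = 0.0877) and Dlg4 at -0.22 ± 0.08 (adjusted p = 0.0957). For Lrfn2 the difference was 0.22 ± 0.10 with an adjusted p of 0.196, so a larger rise in Het than in WT mice was not shown. With 1 library left out at a time, 0 to 6 members passed in the sex average. The highest count came without Het fluoxetine male replicate 1 or Het vehicle female replicate 2. The Het and WT libraries given fluoxetine, compared directly, gave 0 calls in males (1.18% of all genes, 6 members at an unadjusted p under 0.05) and 0 in females (0.0393%, 10 members), with Dlgap1 (0.16, adjusted p = 0.0608) and Shank1 (-0.30, adjusted p = 0.0645) closest in males. Without Het fluoxetine male replicate 1 or WT fluoxetine male replicate 5, 3 members were called in males.

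**Figure D4:**
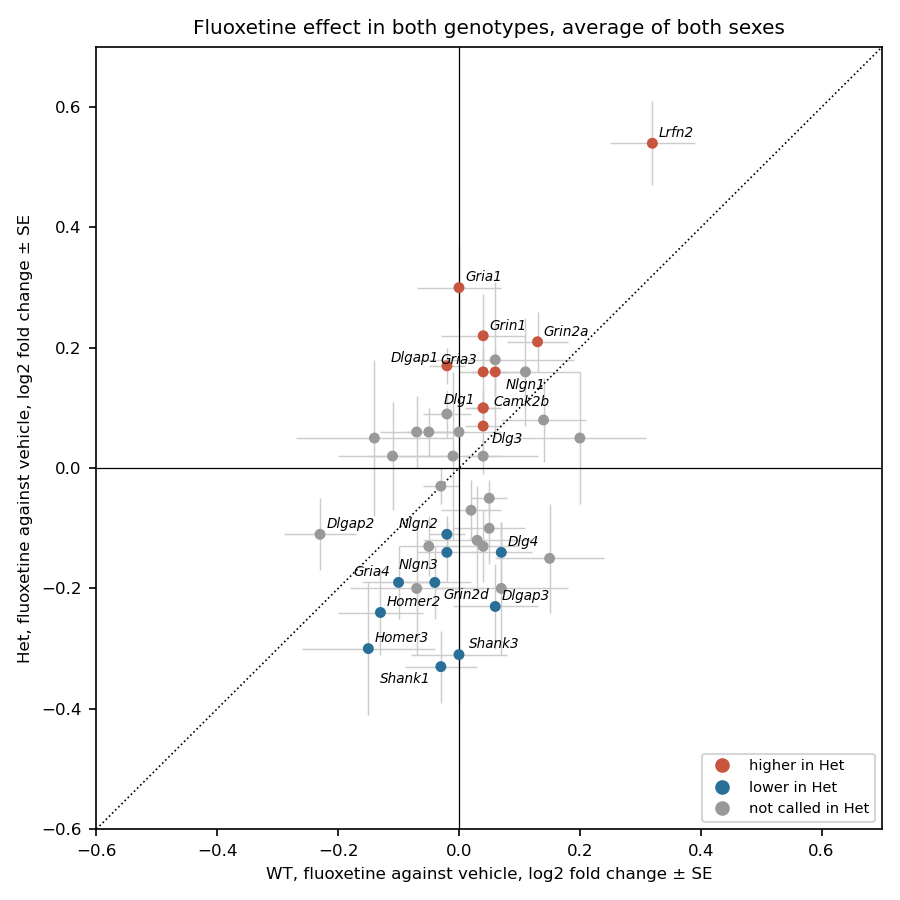
Fluoxetine effect on each of the 43 genes in WT mice (horizontal) and Het mice (vertical), as sex-average log2 fold changes with bars of 1 SE and a dotted line of equal effect. Lrfn2 lies at 0.32 and 0.54, Dlgap1 at -0.02 and 0.17, and Shank1 and Shank3 near 0 in WT and at -0.33 and -0.31 in Het mice.

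Lithium was compared with the same vehicle libraries as fluoxetine, so the comparisons of the drugs are not independent and their values are given side by side only. In WT mice 1 member was called in males (0.0786% of all genes, 0.0281% higher and 0.0505% lower), Lrfn2 at 0.49 with an adjusted p of 0.0374, and 0 in females (0.118%, 6 members at an unadjusted p under 0.05). In the WT sex average 1 was higher and 2 lower (6.98%, against 2.97% of all genes, 1.9% higher and 1.07% lower), with a median of -0.004 for both members and all genes. Lrfn2 had 739, 751, 734, 838 and 707 normalized counts in WT lithium males and 705, 738, 590, 746 and 727 in WT lithium females, where replicate 3 alone lay within the vehicle range. Its change was 0.39 ± 0.07 (SE), adjusted p = 0.00146, beside 0.32 with fluoxetine. Without any 1 of the 10 male libraries, the call in WT males was lost.

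Both Dlgap genes called in WT mice fell with lithium. Dlgap2 had 2530, 2160, 2411, 2404 and 2693 normalized counts in WT lithium males and 2283, 2020, 2036, 2492 and 2222 in WT lithium females, all below the vehicle libraries of their sex. It changed by -0.30 ± 0.06 (SE; adjusted p = 0.00492), beside -0.23 with fluoxetine. Dlgap1 had 15368, 15394, 15043, 14805 and 15391 in males and 15408, 14908, 14137, 14903 and 14749 in females, also below every vehicle library, and changed by -0.13 ± 0.03 (adjusted p = 0.0198), beside -0.02 with fluoxetine. Without the 16 libraries 1 of the 3 WT calls was left.

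In Het mice lithium gave 1 member higher and 5 lower in the sex average (14%, against 9.14% of all genes, 5.3% higher and 3.84% lower), with medians of -0.051 for members and -0.002 for all genes. Lrfn2 had 661, 708, 802, 749 and 711 normalized counts in Het lithium males and 684, 733, 677, 690 and 819 in Het lithium females, above every vehicle library of its sex, and changed by 0.41 ± 0.07 (SE; adjusted p = 0.000155). Homer2 had 4374, 4068, 2811, 3880 and 3649 in vehicle males and 3416, 3212, 3136, 3204 and 3358 in lithium males. In females it had 3752, 3424, 4687, 4113 and 3795 with vehicle and 3296, 2993, 3141, 3035 and 3230 with lithium. The female groups were separate, and in males vehicle replicate 3 lay below all lithium libraries. The change of Homer2 was -0.26 ± 0.07 (adjusted p = 0.023), beside -0.24 with fluoxetine.

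Grin3a changed by -0.19 ± 0.05 (adjusted p = 0.0119) with lithium, beside -0.07 with fluoxetine. Its counts were 1877, 1815, 1711, 1947 and 1757 in Het vehicle males and 1616, 1611, 1737, 1386 and 1357 in Het lithium males. In females they were 1819, 1912, 1791, 1772 and 1771 with vehicle and 1550, 1652, 1976, 1735 and 1411 with lithium. Only male replicate 3 and female replicate 3 of the lithium libraries reached the vehicle ranges. The remaining calls were Grin2d (-0.18 ± 0.06, adjusted p = 0.0495), Dlg2 (-0.10 ± 0.03, adjusted p = 0.0454) and Dlgap1 (-0.10 ± 0.03, adjusted p = 0.0446). These 3 lay close to the threshold: of 30 alternatives the Grin2d call was lost in 21 (estimates from -0.22 to -0.07), the Dlg2 call in 16 and the Dlgap1 call in 18. Of the 6 calls, 1 (Lrfn2) was kept without the 16 libraries and 3 with marker scores as covariates.

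Dlgap1 held 14831, 14101, 15441, 14479 and 15088 normalized counts in Het lithium males and 14213, 15310, 14365, 13034 and 14948 in Het lithium females. These values overlapped the Het vehicle values in both sexes. In single sexes, lithium gave 1 member higher and 2 lower in Het males, or 1 and 1 after quantile normalization or with 1 total, where 2% of all genes were called (1.44% higher and 0.562% lower). They were Lrfn2 (0.41), Grin2d (-0.30) and Grin3a (-0.25), with medians of -0.028 for members and -0.002 for all genes. Het females had 1 member higher (0.629% of all genes, 0.444% higher and 0.185% lower), Lrfn2 at 0.41, with medians of -0.027 for members and -0.003 for all genes. The sex-average count fell to 2 without Het vehicle male replicate 1 or Het vehicle female replicate 3, and to 3 without Het lithium male replicate 5 or Het vehicle male replicate 2 or 4 or with only the groups compared in the fit. In Het males 0 were called without Het lithium male replicate 4 or Het vehicle male replicate 1, and 1 without Het lithium male replicate 3 or 5 or Het vehicle male replicate 2 or 4. The Lrfn2 call of Het females was lost without Het lithium female replicate 1, 2 or 5 or Het vehicle female replicate 1, 3 or 4.

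In the test of the lithium effect between genotypes 0 members passed, with 2, 0 and 0 at an unadjusted p under 0.05 in males, females and the average (0% of all genes passed in each). Het and WT libraries given lithium differed in 0 members in males (0.00562% of all genes, 0 members at an unadjusted p under 0.05) and in 0 in females (0.0168%, 2 members).

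**Figure D5:**
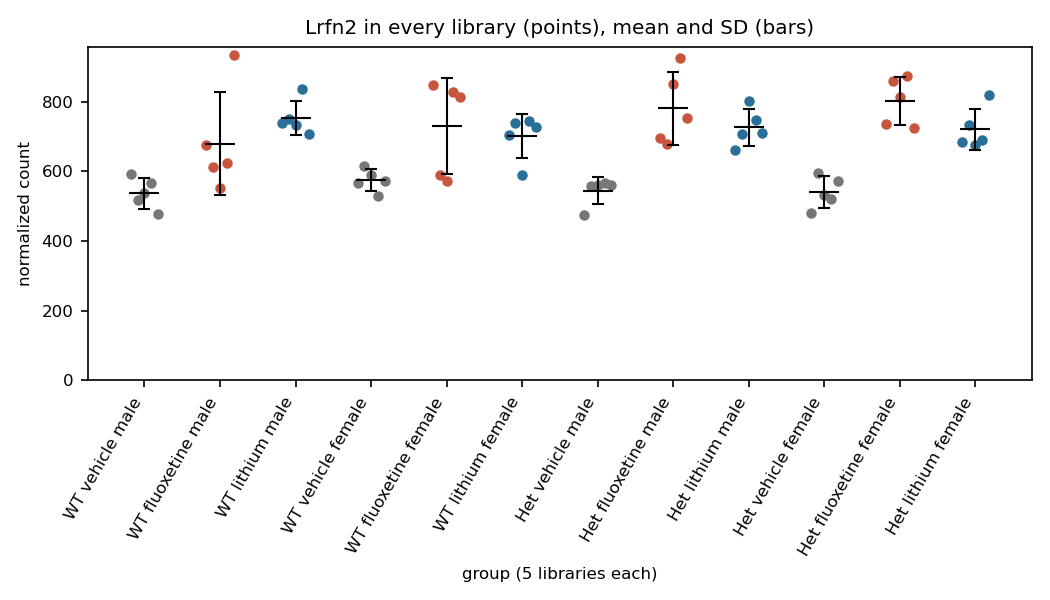
Lrfn2 normalized counts in all 12 groups of 5 libraries, each point 1 library, with the group mean and SD and an axis from 0. Vehicle groups had means of 538 to 575, and the means of drug groups ran from 680 in WT fluoxetine males to 802 in Het fluoxetine females.

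Lrfn2 was called in 9 of the 12 comparisons of a drug with vehicle. These are not independent: the averages reuse the libraries of the single sexes, and both drugs share the vehicle libraries. Its vehicle group means were 538 ± 44.5 and 575 ± 31.4 in males and females of the WT, and 545 ± 38.4 and 541 ± 45.1 in Het males and females (SD, n = 5 in each), which differed by no more than about their spread. Fluoxetine groups had 680 ± 149 and 730 ± 137 in males and females of the WT, and 781 ± 105 and 802 ± 68.3 in those of the Het genotype. Lithium groups had 754 ± 49.7, 701 ± 63.9, 726 ± 52.4 and 721 ± 59.1 in the same order. The WT fluoxetine groups were the most spread, with WT fluoxetine male replicate 5 at 934. Each of its 4 sex-average drug calls passed in all 30 alternatives run. Of 20 alternatives, its lithium call was lost in 12 in WT males, 8 in Het females and 4 in Het males. Its fluoxetine call was lost in 1 of 20 in Het males and 0 of 20 in Het females.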

How the data were processed

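The authors deposited 1 table of a normalized signal (each library's whole reads over its own size factor) for 18088 Ensembl genes in 60 libraries (all values whole after dividing by the step, at a tolerance of 0.001). Tools given in the submitters' processing notes are DESeq2 1.19.11, Salmon 0.11.2 and R 3.6.0, with build GRCm38, and the annotation is not given in the sources used here. Per the labels' protocols the kit was stranded and selected polyadenylated RNA. Inferred library totals, 24.05 to 31.65 M reads, limit the precision of the scarce genes.

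GENCODE M21 (GRCm38) supplied coordinates and the symbols of 18077 genes, and RefSeq the promoters. Values were taken to log2(value + 1), and genes with at least 10 in at least 5 libraries (17807) were fitted with limma 3.58.1 (limma-trend, R 4.3.3) with 1 mean for each of the 12 groups and 48 residual degrees of freedom. P-values were two-sided and Benjamini-Hochberg adjusted within each of 30 comparisons. Tables and figures used Python 3.11.15, pandas 2.3.3, numpy 2.4.6, scipy 1.17.1 and matplotlib 3.10.9, and the fit was tested on simulated data.

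The members, the marker lists and the list of other postsynaptic genes were chosen with earlier results of these data known. The named genes were the called members, with the remaining members given by range, and up to 6 called genes with the smallest adjusted p per comparison from the list of other postsynaptic genes. Some genes of that list are not reported here. Replicate numbers did not pair libraries: residual correlations between libraries with the same number ran from -0.28 to 0.22. Alternatives changed the scaling, pseudocount, filter, groups fitted, block and libraries, and library weights, marker scores as covariates and a GC correction were added after seeing the data.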

Additional observations from a re-analysis of the deposited data

Results flagged for a closer look

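For the 25 genes named with their values, each of the 12 groups of 5 libraries was searched for a library far from the other 4 (a gap to the nearest one above Dixon's 95% critical value). Of 300 groups 16 had one, where chance gives about 1 in 20, or 15. In WT lithium females replicate 3 was lowest for Gria3 (9150.0, the others 10507 to 11057) and for Lrfn2 (590, the others 705 to 746) and highest for Homer3 (261, the others 149 to 161). In WT lithium males replicate 5 was highest for Camk2b (24165, the others 21821 to 22179) and lowest for Gria4 (2793, the others 3654 to 3799), and replicate 2 was lowest for Homer2 (3246, the others 3443 to 3483). Dlg2 was lowest in Het fluoxetine female replicate 2 (15976, the others 17794 to 18516), in Het lithium female replicate 5 (15341, the others 17467 to 17988) and in WT vehicle female replicate 4 (17400, the others 18900 to 19365).

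Of libraries that enter the results above, Het vehicle female replicate 4 was lowest for Dlgap1 (14605, the others 15791 to 16172), Het fluoxetine female replicate 1 was highest for Gria4 (3815, the others 2922 to 3056), and Het vehicle male replicate 1 was lowest for Lrfn2 (476, the others 559 to 566). WT fluoxetine male replicate 3 was lowest for Gria3 (9483, the others 11211 to 11555) and WT fluoxetine female replicate 4 highest for Nlgn1 (3054, the others 2460 to 2562). In WT vehicle libraries, female replicate 3 was highest for Nlgn2 (7699, the others 7063 to 7134) and male replicate 5 highest for Shank3 (8341, the others 6941 to 7247).

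A difference between the genotypes passed its own test for 1 of the 43 genes, in males (0.927% of all genes passed) and in the average of both sexes (1.7%). The fluoxetine effect on Dlgap1 was larger in Het than in WT mice by 0.27 in males and by 0.19 in the average of both sexes on the log2 scale. The male call was lost in 16 of 30 alternatives and the sex-average call in 7 of 50.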

How the results depend on the processing

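Over the 60 named gene results, 1281 of 1550 alternative values kept their direction and their side of the threshold, 269 lost the call and 0 turned direction. Numbers of called members moved as follows. With only the groups compared in the fit they were, for fluoxetine, 12 in the Het average, 3 in its males, 2 in its females and 1 in WT males, for lithium 3 in the Het average, 1 in its males, 0 in its females and 1 in WT females, and 0 in the genotype difference of the fluoxetine effect in males and in the average. Without the 16 libraries highest in olfactory bulb score they were 1 for fluoxetine in the WT average, 0 in Het males and 10 in the Het average, for lithium 0 in WT males, 1 in the WT average, 9 in Het females and 0 in the males, and 0 in both genotype differences. Library weights gave, for fluoxetine, 1 in WT males, for lithium 10 in the Het average, 7 in its males, 2 in its females, and 3 and 4 in males and females of the WT, 3 in Het against WT fluoxetine females, and 3, 4 and 8 in the genotype difference for males, females and the average. Marker scores as covariates gave 1 for fluoxetine in WT males, 2 for lithium in WT females, 1 in Het males, 2 in Het against WT fluoxetine males and 0 in the average genotype difference, and the GC correction 0 for lithium in WT males. Quantile normalization gave 2 for lithium in Het females, 1 in Het against WT fluoxetine males, 0 in the male and 3 in the average genotype difference, and 1 total per library gave 1, 0 and 2 in these same comparisons other than lithium. The replicate block, where numbers did not pair libraries, gave 1 in Het against WT fluoxetine males and 2 in the average genotype difference. With 1 library left out, counts ran, for fluoxetine, from 16 to 22 in the Het average, 8 to 13 in its males, 6 to 18 in its females, and 0 to 1 in either sex of the WT, for lithium 0 in WT males, 2 to 9 in the Het average, 0 to 4 in its males and 0 to 1 in its females, 0 to 3 in Het against WT fluoxetine males, 0 to 2 and 0 to 6 in the male and average genotype differences, and 0 to 1 in the Het sex difference. The planned edgeR fit was not run, because the deposited values were not accepted as counts. Causes of these moves were not tested. Some settings leave fewer libraries and degrees of freedom, and depth limits the scarce genes (Homer3, Grm8, Grik1, Grin2d).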

Other observations

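A further list of 50 postsynaptic genes outside the 43, of which 49 were tested, was followed through the same comparisons. With fluoxetine in Het mice, 13 rose and 2 fell in the average of both sexes (30.6% called, against 32.9% of all genes, with a median change of 0.05). Adhesion proteins of the Lrrtm family were among those that rose, Lrrtm4 by 0.33 ± 0.06 (SE, adjusted p = 2.13e-05) and Lrrtm3 by 0.22 ± 0.05 (adjusted p = 0.00114). Baiap2, an actin regulator that binds Shank and guanylate kinases, rose by 0.27 ± 0.06 (adjusted p = 0.000202), Camk2d, another CaM kinase II subunit, by 0.17 ± 0.04 (adjusted p = 0.000245) and Cript, a partner of guanylate kinases, by 0.27 ± 0.07 (adjusted p = 0.00144). Grin2c, an NMDA receptor subunit best known from cerebellum and astrocytes, changed by -0.41 ± 0.09 (adjusted p = 0.00041). Counts by sex were 9 higher and 2 lower in Het males (22.4%, against 22.7% of all genes, median 0.091) and 6 higher and 2 lower in Het females (16.3%, against 15.1%, median 0.031), while in WT mice 0 were called in either sex by limma, with 4 and 8 at an unadjusted p under 0.05. In the WT sex average 2 were higher and 2 lower (8.16%, against 8.2% of all genes, median 0.008): Grip1, an AMPA receptor binding scaffold, at -0.38 ± 0.09, Lrfn3 at 0.14 ± 0.04, Gsg1l, an AMPA receptor auxiliary subunit, at 0.31 ± 0.09 and the adhesion gene Il1rapl1 at -0.16 ± 0.05.

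With lithium the same list had 2 higher and 3 lower in the WT sex average (10.2%, against 2.97% of all genes, median 0.016) and 5 higher and 3 lower in the Het sex average (16.3%, against 9.14%, median 0.009). Lrfn3, a paralog of Lrfn2, was at 0.20 ± 0.04 (SE, adjusted p = 0.00313) in WT and at 0.18 ± 0.04 (adjusted p = 0.00262) in Het mice. Cnih3, an AMPA receptor auxiliary protein, was at 0.22 ± 0.05 in WT and 0.27 ± 0.05 in Het mice, and Il1rapl1 at -0.21 ± 0.05 and -0.26 ± 0.05 in the same order. In Het mice Baiap2 was at 0.21 ± 0.06 and Nptx1, a secreted protein that gathers AMPA receptors, at 0.45 ± 0.12. By sex, 1 rose and 2 fell in Het males (6.12%, against 2% of all genes), and 0 were called in WT males, WT females and Het females, with 7, 6 and 9 at an unadjusted p under 0.05. In the comparisons of genotype, and in the tests of genotype or sex differences in a drug effect, 0 of the 49 were called by limma, with between 0 and 12 at an unadjusted p under 0.05.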
